A study of Mus musculus with 6 samples.

Results

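The genes described here belong to the Notch pathway. A list of 32 genes was chosen by symbol (receptors, ligands, the sugar transferases that modify the receptors, the proteases that cut them, the nuclear complex, its targets and the modifiers), and 29 had a probe that could be named, out of 37939 genes and unnamed probes tested on the arrays. Jag1, Rfng and Numb had no probe paired with their names and were not analysed here. Where a gene had several probes, the one of highest mean crypt signal was used.

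The samples were crypts, the epithelial pockets in which intestinal stem and progenitor cells sit. Laser capture took them from mid small intestine sections of 6 C57BL/6 mice aged 120 days, and each mouse had its own 2-colour array. The 3 LOI(+) mice carried, from their H19+/- mothers, an allele lacking H19 and the upstream stretch with the differentially methylated region, which per the series' design switches on the normally silent maternal copy of the growth factor gene Igf2 (loss of imprinting). The 3 LOI(-) mice were wild-type offspring of the same kind of cross with a wild-type C57BL/6J father, so both groups had an H19+/- mother. The deletion removes H19 together with the control region, so LOI(+) mice carry both changes. Sex was labelled male for 2 mice of each group and was not labelled for LOI(+) 2 or LOI(-) 3. Crypt RNA carried Cy3, and the Cy5 channel of every array held Universal Mouse Reference RNA, which is pooled from cultured mouse cell lines. Values are log2 ratios of crypts over this reference after dye normalization. A value of 0 means equal normalized signal in both, not equal raw intensity. A ratio says nothing of how abundant one gene is beside another. No array had the dyes exchanged, so any dye effect of a probe is part of its ratio in both groups.

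Notch signalling passes between touching cells. A ligand of the Delta or Jagged family on one cell binds a Notch receptor on its neighbour, an ADAM protease and then gamma-secretase cut the receptor, and the freed intracellular part joins RBPJ and a Mastermind protein to switch on repressors of the Hes and Hey families. In the intestinal crypt Notch keeps progenitors dividing and steers them to the absorptive fate. Cells that escape it express Atoh1, the transcription factor required for goblet, Paneth and enteroendocrine secretory lineages, and display the ligands Dll1 and Dll4.

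Across the 6 arrays the median Cy3 signal lay between 552 and 603 and the median Cy5 signal between 648 and 698. The log2 ratios of the arrays correlated, across genes, with r between 0.932 and 0.975, and LOI(+) 2 had the lowest mean r, 0.948, and the most features marked as outliers, 146. Igf2 had a log2 ratio of 0.089 ± 0.020 in LOI(+) and 0.092 ± 0.064 in LOI(-) crypts (SD, n = 3 each), with an adjusted p of 0.996 in limma for the difference, so it did not check the labels. H19, the deleted gene, was not analysed here, since its name matched no probe. Of 11 epithelial markers measured, 10 were higher in crypts than in the reference, Vil1, Cdh17 and Cdh1 among them. All 6 fibroblast markers measured were lower, but other lists were mixed. Of 7 smooth muscle and pericyte markers 2 were higher, Rgs5 at 3.13 among them, and 4 lower. Of 6 myeloid and mast markers 4 were higher and 2 lower. B and plasma cell markers had 2 of 5 higher and 3 lower, and T and NK cell markers 2 of 6 higher and 2 lower. All 4 villus enterocyte markers were higher. The part of such cells in the pathway values was not tested. The mean log2 ratio of those epithelial markers was 3.29 to 3.37 in LOI(+) and 3.42 to 3.62 in LOI(-) crypts, without overlap. Not every marker followed this mean, as Cdh17 was higher in all LOI(+) mice than in all LOI(-) mice.

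The largest ratios over the reference belonged to the ligands Dll1 and Dll4, the secretory-fate genes Atoh1 and Hes6, and the target Nrarp. The fitted folds of these 5 genes ran from 3.00 for Dll4 to 4.92 for Atoh1, and Numbl was 4.47-fold lower. These sizes depended on the background correction. Without it the log2 ratios were 1.30 for Atoh1, 1.19 for Dll1, 1.05 for Hes6, 0.80 for Nrarp, 0.69 for Dll4 and -1.04 for Numbl. Of the 29 genes, 12 were higher and 12 lower than the reference at an adjusted p under 0.05 (limma, Benjamini-Hochberg over all features, two-sided). The background of the arrays was 31.9% higher and 32.6% lower, so calls of this kind were common to all genes. With a log2 ratio of at least 1 required as well, 5 were higher and 1 was lower, against 4.34% and 5.35% of all features. This test sets 6 mice against 1 reference RNA, so it leaves out the reference's own spread. Under 18 other settings 16 of the 24 calls held in each one with the same sign, 8 higher (Atoh1, Dll1, Dll4, Hes1, Hes6, Notch1, Notch4 and Nrarp) and 8 lower (Dll3, Dtx2, Dtx3, Jag2, Maml1, Mfng, Numbl and Rbpj).

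**Figure D1:**
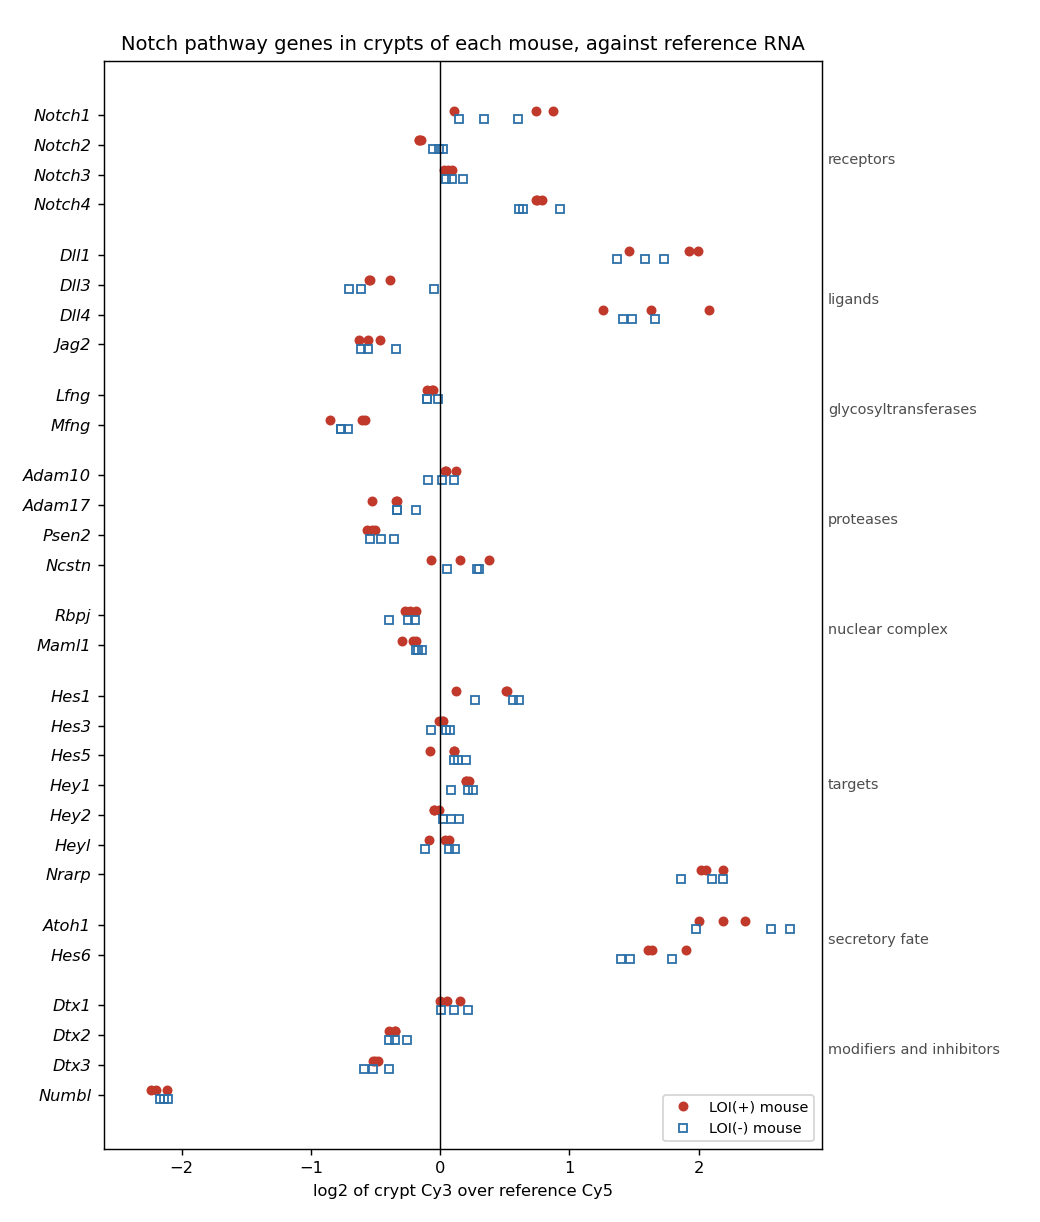
Log2 ratio of crypt Cy3 over reference Cy5 (x axis) for the 29 measured Notch pathway genes, ordered by role (y axis), with 3 LOI(+) mice as filled circles above 3 LOI(-) mice as open squares. Dll1, Dll4, Nrarp, Atoh1 and Hes6 stand to the right of 1 in all 6 mice and Numbl to the left of -2, while the 2 groups of mice overlap in every row except Notch2 and Hey2.

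Atoh1 had log2 ratios of 2.19, 2.00 and 2.36 in LOI(+) crypts, against 2.56, 1.98 and 2.71 in LOI(-) crypts. All 6 mice were far above the reference, the highest 2 values were both LOI(-), and the groups overlapped. The mean ratio was 2.30 ± 0.10 (SE), a fold of 4.92, with an adjusted p of 9.23e-07 in limma. Hes6, a Hes family member that opposes Hes1 and is induced with proneural factors, had a ratio of 1.63 ± 0.063 with a range of 1.61 to 1.90 in LOI(+) and 1.40 to 1.80 in LOI(-) crypts. In bulk crypt RNA a larger number of cells of a type and more RNA in each such cell cannot be told apart. For markers of the secretory cells, the mean log2 ratio of 4 goblet genes was 5.44 to 5.57 in LOI(+) and 5.55 to 5.73 in LOI(-) crypts. For 6 enteroendocrine genes it was 1.99 to 2.49 in LOI(+) and 1.94 to 2.23 in LOI(-) crypts. For 3 Paneth genes it was 4.31 to 4.51 in LOI(+) and 4.55 to 4.66 in LOI(-) crypts. One of them, Itln1, was saturated in Cy3 on all 6 arrays, so its ratio is no measured level and the Paneth mean is unreliable. Taken singly, Mmp7, Ang4 and Itln1 each had overlapping groups. For 4 tuft genes the mean log2 ratio was 0.17 to 0.28 in LOI(+) and 0.086 to 0.27 in LOI(-) crypts. Of these 4, 2 were higher than the reference and 1 lower. These ratios also depend on the reference RNA, so they do not rank the lineages by number of cells. The part of the secretory cells in the Atoh1 and Hes6 values was not tested.

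Among the ligands the Delta-like genes split. Dll1, a ligand of secretory progenitors in the crypt, had log2 ratios of 1.92, 1.46 and 1.99 in LOI(+) crypts, against 1.37, 1.73 and 1.58 in LOI(-) crypts. LOI(+) 1 and LOI(+) 3 were the highest of the 6, but LOI(+) 2 fell among the LOI(-) mice. The mean was 1.68 ± 0.079, a fold of 3.20 over the reference, with an adjusted p of 1.68e-06 in limma. Dll4, which acts with Dll1 in the crypt and is also the main ligand of endothelial cells, stood at 1.59 ± 0.10, ranging over 1.26 to 2.08 in LOI(+) and 1.41 to 1.66 in LOI(-) crypts. Of the endothelial markers, 8 were measured and had mean log2 ratios of 0.065 to 0.24 in LOI(+) and 0.10 to 0.20 in LOI(-) crypts, with 3 of them above the reference, and the crypt signal of Tek and Tie1 passed the negative controls on only 3 and 2 arrays. Their part in the Dll4 value was not tested.

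Dll3, a Delta protein that stays inside the cell and dampens Notch, was lower than the reference at -0.47 ± 0.083. Jag2, the one Jagged ligand measured, had log2 ratios of -0.56, -0.47 and -0.63 in LOI(+) crypts, against -0.61, -0.56 and -0.34 in LOI(-) crypts, all of them below 0 and with overlap between the groups. Its mean was -0.53 ± 0.044 (adjusted p 3.65e-05 in limma), read from a dim spot whose Cy3 signal was 456 to 471, where the negative control features reached 439 to 449 at their 95th percentile. The correction adds an offset of 50 to both channels, so ratios of such dim spots are pulled towards 0.

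Every receptor lay nearer to the reference than Dll1 and Dll4. Notch1, the receptor with the leading part in crypt progenitors together with Notch2, was higher at 0.47 ± 0.11, and Notch4, known as an endothelial receptor, at 0.74 ± 0.046. The endothelial markers given beside Dll4 apply to Notch4 as well. Notch3, a receptor of pericytes and vascular smooth muscle, stood at 0.082 ± 0.029 with a Cy3 signal of 462 to 484, close to the negative controls. Notch2 stood at -0.086 ± 0.026 on the probe used, but its other probe gave 0.20 ± 0.045, so the direction against the reference depends on the probe, and the mean of both was 0.056.

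Lunatic and manic fringe extend sugars on the receptors and so tune which ligand they answer to. Mfng had log2 ratios of -0.58, -0.60 and -0.85 in LOI(+) crypts, against -0.71, -0.77 and -0.76 in LOI(-) crypts. Every mouse was below the reference and the LOI(+) values enclosed the LOI(-) ones. Its mean was -0.71 ± 0.041 (adjusted p 5.17e-06 in limma). Lfng was near the reference at -0.075 ± 0.028 with a dim Cy3 signal of 453 to 494, and turned to 0.30 when arrays were centred on the median in place of loess.

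Of the proteases, Adam10, the one that makes the first cut of Notch after ligand binding, was not separated from the reference at 0.037 ± 0.035. Its Cy3 signal was a dim 476 to 487. Over 18 other settings its ratio ran from 0.012 to 0.31 and passed in 1. Adam17, a related sheddase, was lower at -0.34 ± 0.039 on its brightest probe, while its other probes gave 0.11 ± 0.072, 0.29 ± 0.036 and -0.021 ± 0.036, the last with no array above the negative controls in Cy3. Ncstn, the gamma-secretase subunit nicastrin, was slightly higher at 0.18 ± 0.062, a sign that turned to -0.11 with median centring. The catalytic subunit gene Psen2 had a Cy3 signal of 429 to 441 and was above the negative controls on 0 of 6 arrays, so its ratio of -0.49 is no measured level in crypts, although it is among the 12 lower calls. In the nuclear complex, Rbpj, the DNA-binding partner of cut Notch, was lower than the reference at -0.25 ± 0.035, and Maml1, a Mastermind coactivator, at -0.20 ± 0.028. The dimmer Rbpj probe gave -1.24 ± 0.035, with crypt signal past the negative controls on 0 of 6 arrays.

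Of the 7 targets measured, 4 were higher than the reference and 3 did not pass. Nrarp, a direct target that feeds back to destabilise the Notch complex, had log2 ratios of 2.06, 2.19 and 2.02 in LOI(+) crypts, against 2.10, 2.19 and 1.86 in LOI(-) crypts. The groups overlapped and the mice lay close together, at a mean of 2.07 ± 0.049, a fold of 4.20 with an adjusted p of 5.05e-08 in limma. Hes1, the main effector that represses Atoh1, stood at 0.43 ± 0.068 on the brighter probe and 0.051 ± 0.054 on the other, though both gave a negative group difference. Hey1 was at 0.19 ± 0.032, but turned to -0.095 with median centring, and Hes5 at 0.10 ± 0.036 lost its call in 11 of 18 settings. Hes3 at 0.014 ± 0.031, Hey2 at 0.024 ± 0.028 and Heyl at 0.014 ± 0.040 did not pass. The Cy3 signals of Hes5 and Hey2, 453 to 472 and 456 to 476, were little above the negative controls, so their ratios rest on little signal.

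RBPJ binds the core letters TGGGAA, and a promoter window of 250 bases is printed for 2 targets and for 2 further genes of the pathway. Nrarp and Atoh1 are shown because they had the highest ratios, and Hes5 and Lfng as genes with 2 matches in their only window. Capitals mark TGGGAA or its reverse complement TTCCCA. Sequences are from RefSeq on build GRCm38.p6, 5′ to 3′ on the gene's strand.
Nrarp promoter, chr2:25180508-25180757, plus strand: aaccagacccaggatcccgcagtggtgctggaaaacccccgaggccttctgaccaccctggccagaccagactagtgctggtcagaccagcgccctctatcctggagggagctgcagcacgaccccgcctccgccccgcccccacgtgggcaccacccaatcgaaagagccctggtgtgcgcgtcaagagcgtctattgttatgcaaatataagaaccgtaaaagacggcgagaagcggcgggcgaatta
Atoh1 promoter, chr6:64728875-64729124, plus strand: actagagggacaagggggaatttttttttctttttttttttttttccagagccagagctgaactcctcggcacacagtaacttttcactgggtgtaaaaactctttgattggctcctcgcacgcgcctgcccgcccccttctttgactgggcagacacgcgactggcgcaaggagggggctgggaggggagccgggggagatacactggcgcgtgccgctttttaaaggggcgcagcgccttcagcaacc
Hes5 promoter, chr4:154960673-154960922, plus strand: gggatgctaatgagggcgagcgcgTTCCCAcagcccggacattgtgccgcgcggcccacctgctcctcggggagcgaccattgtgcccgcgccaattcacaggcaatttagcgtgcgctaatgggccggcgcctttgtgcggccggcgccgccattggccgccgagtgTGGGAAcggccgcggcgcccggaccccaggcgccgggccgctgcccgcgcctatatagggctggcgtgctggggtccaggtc
Lfng promoter, chr5:140607091-140607340, plus strand: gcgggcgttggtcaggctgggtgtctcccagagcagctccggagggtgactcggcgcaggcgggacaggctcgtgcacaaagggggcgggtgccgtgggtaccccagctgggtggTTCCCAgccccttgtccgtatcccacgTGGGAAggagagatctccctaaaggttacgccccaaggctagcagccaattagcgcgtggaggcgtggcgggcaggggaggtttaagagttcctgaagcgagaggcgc
The Hes5 matches begin at -226 and -82 and those of Lfng at -135 and -108, counted back from the end of the window. The windows of Nrarp and Atoh1 hold none. For Nrarp, Atoh1 and Lfng the window ends just before the listed gene start. The Hes5 window begins after the listed gene start, 154960626, so it lies within the gene as listed. Of 27 such windows for 23 of the measured genes, 7 (25.9%) held a match on either strand, against 21.6% of all 32851 promoter windows. The 5 genes of the largest positive ratios, Atoh1, Nrarp, Dll1, Hes6 and Dll4, had no match in any window. The genes with at least 1 were Dtx2, Hes5, Hey2, Lfng, Psen2 and Rbpj. The targets Hes1, Hes3, Hey1 and Heyl, and also Dtx3 and Mfng, had no window available, so they were not searched for the letters.

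Numbl, a relative of the Notch inhibitor Numb, differed from the reference most of all the genes below 0. It had log2 ratios of -2.24, -2.11 and -2.20 in LOI(+) crypts, against -2.14, -2.11 and -2.16 in LOI(-) crypts. The mice lay close together and the groups overlapped, at a mean of -2.16 ± 0.029 with an adjusted p of 4.36e-09 in limma. Its Cy3 signal was a low 499 to 532, where the negative controls reached 439 to 449 at their 95th percentile. Without background correction the Numbl ratio was -1.04, so its size is uncertain. The Deltex proteins act on the fate of the receptor inside the cell. Dtx2 was lower at -0.35 ± 0.030 and Dtx3 at -0.50 ± 0.033, while Dtx1 at 0.088 ± 0.037 did not pass.

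**Figure D2:**
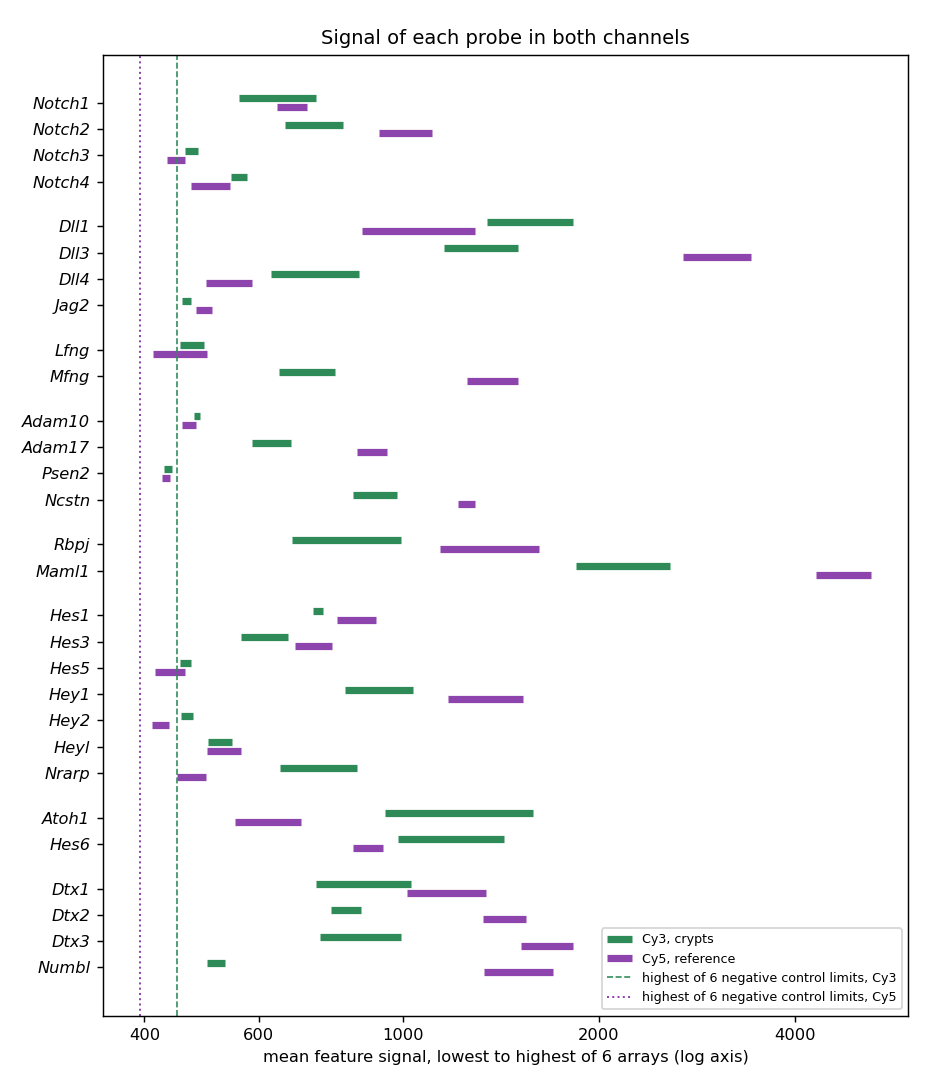
Mean feature signal (x axis, log scale) of each gene's probe (y axis), as the range over 6 arrays with Cy3 (crypts) above Cy5 (reference), before dye normalization, and with lines at the highest of the 6 limits set by 314 negative control features in each channel. Psen2 lies below the Cy3 line, and Notch3, Jag2, Lfng, Adam10, Hes5 and Hey2 lie just above it.

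Between the groups no gene of the pathway passed. Over all 37939 features 0 (0%) differed at an adjusted p under 0.05 in limma, and 6.15% did at an unadjusted p under 0.05 (3.93% higher and 2.22% lower in LOI(+)). Among the 29 genes 0 passed adjusted, with a smallest adjusted p of 0.803, and 1 (Notch2) was under 0.05 unadjusted. By sign 12 differences were above 0 and 17 below, where 51.3% of all features were above 0. The median difference was -0.028 for these genes and 0.0029 for all features, on the log2 scale as LOI(+) minus LOI(-). The spread between mice of a group was also like that of other genes, with a median SD of 0.091, against 0.096 over all features.

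Notch2 had log2 ratios of -0.15, -0.16 and -0.17 in LOI(+) crypts, against -0.056, 0.021 and -0.0078 in LOI(-) crypts. All 3 LOI(+) mice were below all 3 LOI(-) mice, on a narrow scale. The difference was -0.14 ± 0.052 (SE, n = 3 each), with a 95% interval of -0.27 to -0.020, an unadjusted p of 0.0283 and an adjusted p of 0.803 in limma. The other Notch2 probe had a difference of -0.15 ± 0.090 with overlapping groups. In the Cy3 channel alone the Notch2 difference was -0.32, so its size depended on the setting. With 1 mouse left out at a time its unadjusted p ran from 0.0313 to 0.0817. The mean of the 11 epithelial markers was also lower in all LOI(+) mice, but the markers did not move alike. Their differences ran from -0.55 for Krt8 to 0.21 for Cdh17, with 2 of the 11 above 0. The part of that mean in the Notch2 and Hey2 differences was not tested.

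Hey2, a target known from heart and vessels, had log2 ratios of -0.044, -0.049 and -0.012 in LOI(+) crypts, against 0.083, 0.022 and 0.15 in LOI(-) crypts. The LOI(+) mice were again all lower, a difference of -0.12 ± 0.057 (adjusted p 0.819 in limma), on a spot little above the negative controls. Groups that did not overlap with LOI(+) lower were 4.98% of all features, and 2 of the 29 genes. With 3 against 3 mice, any gene whose groups do not overlap gets p = 0.1, two-sided, in an exact permutation test. Notch2 and Hey2 got this value, so the test adds nothing to their lack of overlap.

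The other receptors differed by 0.21 ± 0.21 for Notch1, -0.046 ± 0.059 for Notch3 and 0.033 ± 0.092 for Notch4. The ligands Dll1 and Dll4 differed by 0.23 ± 0.16 and 0.14 ± 0.19, and Dll3 and Jag2 by -0.039 ± 0.17 and -0.049 ± 0.088. In the Cy3 channel alone the Dll1 difference was 0.033. Among targets and fate genes, Hes1 differed by -0.10 ± 0.14, Nrarp by 0.037 ± 0.10, Atoh1 by -0.23 ± 0.19 and Hes6 by 0.16 ± 0.13, and the intervals of these crypt effectors still allow sizeable changes. The 95% interval was -0.42 to 0.22 for Hes1, -0.19 to 0.27 for Nrarp, -0.69 to 0.22 for Atoh1 and -0.13 to 0.46 for Hes6. The differences of the remaining genes, which are the fringes, proteases, nuclear partners, dimmer targets and modifiers, ran from -0.11 for Adam17 to 0.068 for Mfng. All intervals lay within the -0.69 of Atoh1 and the 0.71 of Notch1 at either end.

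**Figure D3:**
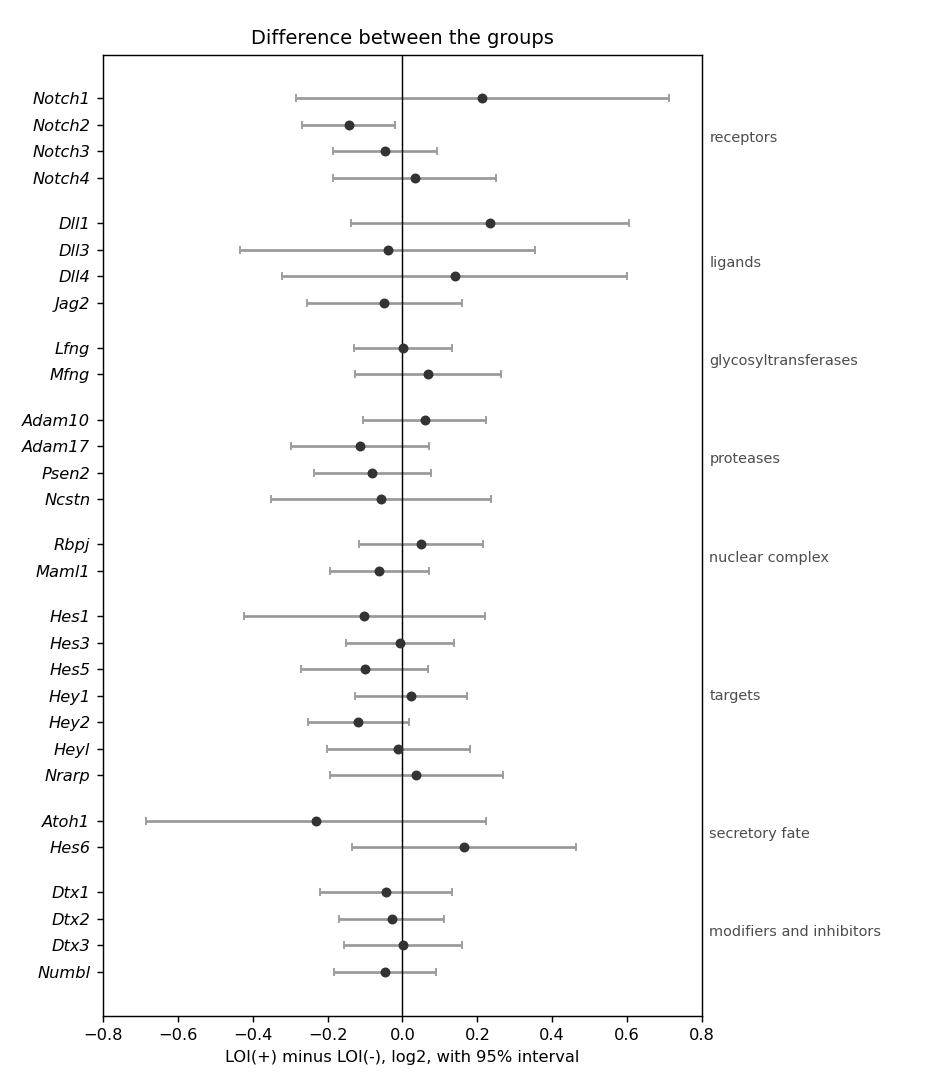
Difference LOI(+) minus LOI(-) on the log2 scale (x axis) for each of the 29 genes (y axis, by role), as the limma estimate with its unadjusted 95% interval (n = 3 mice each). The interval excludes 0 for Notch2 alone, and it is widest for Notch1, Dll4, Atoh1, Dll3 and Dll1.

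The genes differed widely in their spread between mice. The SD between mice of a group was 0.33 for Notch1, 0.31 for Dll4, 0.30 for Atoh1, 0.26 for Dll3, 0.24 for Dll1 and 0.21 for Hes1, against 0.028 for Notch2. Notch1 had 0.74, 0.11 and 0.87 in LOI(+) crypts, against 0.34, 0.14 and 0.60 in LOI(-) crypts, and Hes1 had 0.51, 0.12 and 0.52 in LOI(+) crypts, against 0.27, 0.61 and 0.57 in LOI(-) crypts. LOI(+) 2 was the lowest of all 6 mice for both, as it was for Dll4 at 1.26, and Notch1, Hes1 and Sox9 were chosen for description by mouse after their values were seen. Sox9, a progenitor and Paneth cell factor outside the pathway, had 0.71, -0.23 and 0.86 in LOI(+) crypts, against 0.32, 0.60 and 0.59 in LOI(-) crypts, again with LOI(+) 2 lowest. These are values of the brighter probes. The dimmer Sox9 probe had a mean ratio of -0.18 and a group difference of 0.13 ± 0.10, against 0.48 and -0.057 ± 0.27 on the probe used. On the dimmer Hes1 probe LOI(+) 2 was at 0.083 and was not the lowest.

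LOI(+) 2 was the lowest mouse for 7 of the 29 genes and the highest for 1, while over all features it was lowest for 17.5% and highest for 22.1%. It is also the array with the lowest correlation to the others and a mouse without a sex label, and the part of these in its values was not tested. Without it the LOI(+) difference was 0.45 ± 0.14 for Notch1, 0.40 ± 0.11 for Dll1, 0.34 ± 0.15 for Dll4 and 0.028 ± 0.11 for Hes1 (SE). Notch1 and Dll1 then had an unadjusted p of 0.0168 and 0.0125 in limma, where 1498 of all 37939 features were under 0.05, and 0 of all features passed adjusted, with a smallest adjusted p of 1.00. LOI(+) 2 was singled out after it was seen to be lowest for Notch1 and Dll4, so these p-values carry that choice and are no separate test. The 4 arrays labelled male also leave out LOI(+) 2, so they are no separate support. On them the differences were 0.57 for Notch1, 0.41 for Dll1 and 0.41 for Dll4. Without LOI(+) 3, on the other hand, the differences were 0.063 for Notch1, 0.13 for Dll1 and -0.073 for Dll4. Atoh1 stood at -0.45 ± 0.12 without LOI(-) 2 and at -0.085 ± 0.19 without LOI(-) 3.

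**Figure D4:**
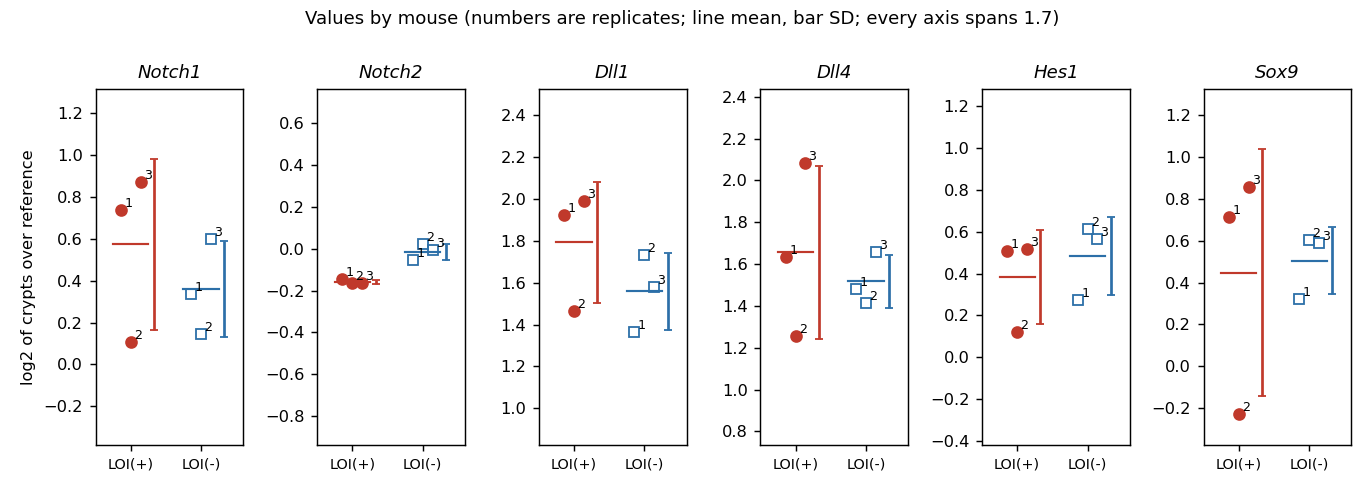
Log2 ratio of crypts over reference (y axis) in each mouse, LOI(+) left of LOI(-), for Notch1, Notch2, Dll1, Dll4, Hes1 and Sox9. Numbers are replicates, horizontal lines group means and bars the SD (n = 3), each axis spans the same length, and LOI(+) 2 is the lowest point for Notch1, Dll4, Hes1 and Sox9.

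A further list of 41 pathway genes had 28 with a named probe. Against the reference 10 were higher and 8 lower at an adjusted p under 0.05, against 31.9% and 32.6% of all features. The median log2 ratio was 0.068 for these genes and -0.0013 over all features. The highest was Aph1a, a gamma-secretase subunit, at 1.81 ± 0.090, though its dimmer probe gave 0.059, and the lowest Dlk1, an imprinted relative of the Delta ligands, at -3.89 ± 0.050. Between the groups 0 passed adjusted in limma and 4 had an unadjusted p under 0.05, with 2 above and 2 below 0 as LOI(+) minus LOI(-), against 3.93% and 2.22% of all features. Snw1, which bridges RBPJ to coactivators and also serves in splicing, had log2 ratios of -0.28, -0.36 and -0.17 in LOI(+) crypts, against 0.094, 0.18 and 0.29 in LOI(-) crypts, a difference of -0.46 ± 0.078 (adjusted p 0.800 in limma). Aph1a had 1.54, 1.59 and 1.36 in LOI(+) crypts, against 1.71, 2.45 and 2.23 in LOI(-) crypts, and its other probe differed by -0.092 ± 0.056. Dtx4, a Deltex ligase, had 0.84, 0.86 and 0.98 in LOI(+) crypts, against 0.67, 0.31 and 0.60 in LOI(-) crypts, while its other probe differed by -0.033 ± 0.054. Ctbp1, a corepressor, had 0.66, 0.63 and 0.63 in LOI(+) crypts, against 0.48, 0.33 and 0.54 in LOI(-) crypts. It differed by 0.19 ± 0.069 and by 0.11 ± 0.10 on its other probe. The groups did not overlap for 3 of the 28 with LOI(+) higher and 3 with LOI(+) lower, against 6.42% and 4.98% of all features. Besides the 4 genes above these were Hdac1, a histone deacetylase, and Dvl1, a Dishevelled protein. Hdac1 had 0.069, 0.066 and 0.091 in LOI(+) crypts, against -0.10, -0.068 and 0.022 in LOI(-) crypts. Dvl1 had -0.0059, 0.044 and 0.033 in LOI(+) crypts, against 0.19, 0.045 and 0.10 in LOI(-) crypts. Neither passed, with an adjusted p of 0.819 for Hdac1 and 0.834 for Dvl1 in limma.

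Genes placed around the choice between secretory and absorptive fate were read beside the pathway, 17 of 19 with a named probe, and Olfm4 and Ascl2 were not analysed here. Against the reference 9 were higher and 5 lower, where 31.9% and 32.6% of all features were. Elf3, an epithelial ETS factor, stood at 2.56 ± 0.045, though its dimmer probe gave 0.59. Creb3l4, a membrane-bound transcription factor, stood at 2.03 ± 0.10. Foxa1 and Foxa2, which promote goblet and enteroendocrine cells, stood at 1.47 ± 0.093 and 1.06 ± 0.065. Spdef, which acts below Atoh1 in goblet and Paneth cells, was at 0.67 ± 0.046, while Gfi1, also below Atoh1, was lower than the reference at -0.81 ± 0.081. Between the groups 0 passed adjusted in limma and 1 was under 0.05 unadjusted, against 6.15% of all features. This was Xbp1, a factor of secretory protein folding. Xbp1 had -0.44, -0.38 and -0.38 in LOI(+) crypts, against 0.0092, -0.046 and -0.18 in LOI(-) crypts, all LOI(+) mice lower, a difference of -0.33 ± 0.067 (adjusted p 0.800 in limma). Spdef differed by -0.11 ± 0.091, Gfi1 by 0.12 ± 0.16 and Neurog3, the enteroendocrine determinant, by -0.073 ± 0.067, none past the test. Creb3l4, Foxa1, Foxa2, Spdef and Neurog3 were named after their values were seen.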

How the data were processed

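The authors' deposited scanner tables hold spot intensity in both channels from Agilent's Feature Extraction software, per the file headers. Mean signals and median local backgrounds are unnormalized intensity, and processed signals are background-subtracted and LOWESS dye-normalized intensity, per the file headers. The deposited log ratio is log10 of red over green, the opposite direction to the ratios given here. The authors' deposited table of log10 values, whose upstream steps are not given in the sources used here, matched log10 Cy3 minus log10 Cy5 plus the mean log10 Cy5 of a feature over arrays (r of 0.998 or more on each array), with column medians of 2.90, and served as an alternative for differences only.

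Probes were named by accession through a RefSeq gene table of GRCm38.p6, which gave a symbol to 15429 of 41006 probes (37.6%). Files name no genome build, so gene coordinates are not given, except with promoter sequences. Mean signals were corrected with normexp (offset 50) and normalized by loess within arrays in limma 3.58.1 (R 4.3.3), with control features at weight 0 and outlier features left out. The difference LOI(+) minus LOI(-), and the mean of both group means against 0 (crypts over reference), came from lmFit and eBayes, with p-values adjusted by Benjamini-Hochberg across 37939 genes and unnamed probes. The scanner's background flag passed nearly all negative controls, so signals were set against the 314 negative control features at their 95th percentile. No spot of the 29 genes was saturated. The fits were tested on simulated data with planted changes larger than any group difference of the 29 genes. That run therefore does not show whether differences of the size seen here would be found. The arrays number 6, which limits the precision, and per the labels each comes from a mouse of its own.

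The members and gene lists were chosen with earlier results of these data known. Per-array values are given for genes with an unadjusted p under 0.05 or groups that do not overlap and for the 3 largest ratios in each direction, and for others where the text says the choice came after seeing the values. Per the file headers all images were extracted on 1 day, LOI(-) before LOI(+), so the order of extraction cannot be told apart from the group.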

Additional observations from a re-analysis of the deposited data

How the results depend on the processing

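Between the groups 0 features and 0 pathway genes passed in the 20 other settings, including those without 1 array (smallest adjusted p 0.124, without LOI(+) 1). Of the 29 differences 11 kept their sign in all of them and 18 did not, and none had passed. With the 18 settings that give a ratio to the reference, the count of genes higher by at least 1 was 3 without background correction, against 5. Among further pathway genes 15 were lower than the reference with median centring, against 8, and among fate genes 3 were lower on the arrays labelled male, against 5. With median centring the ratio turned to 0.30 for Lfng, 0.036 for Psen2, -0.11 for Ncstn, -0.087 for Hes3, -0.095 for Hey1, -0.17 for Dtx1, -0.31 for Psenen, -0.19 for Neurl1a, -0.38 for Hdac1 and -0.16 for Dvl1. With the mean of all probes it turned to 0.056 for Notch2, 0.0097 for Adam17, -0.35 for Fbxw7 and 0.13 for Creb3l1, and these genes have probes that differ. The cause of the median centring changes was not tested. Deviations from the group means correlated at -0.088, -0.25 and 0.35 between mice of the same replicate number. Between mice of unlike number they ran from -0.39 to 0.45. Deviations within a group sum to 0, so these values cannot settle whether the replicate numbers pair the mice. With the replicate block 0 genes passed. The Cy3 channel alone and the deposited log10 table give no ratio to the reference. Signal limits Psen2, Notch3, Jag2, Lfng, Adam10, Hes5 and Hey2, which lay below or just above the negative controls.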
